A study of Mus musculus with 20 samples.

Results

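The quantity described here is the genotype by imiquimod interaction in mouse abdominal skin, that is, the imiquimod response of keratinocyte Zfp36 knockout skin minus the imiquimod response of control skin. For each gene it was computed on the log2 scale as knockout imiquimod minus knockout mock, less the same difference in controls. All 20 of the 20 arrays entered it, 5 in each of 4 groups taken from the array titles. Each of 22180 genes was read by 1 probe set, chosen by its mean over the 20 arrays (the highest). The groups were imiquimod-treated zfp36 fl/fl K14 cre mice, mock-treated zfp36 fl/fl K14 cre mice, imiquimod-treated zfp36 fl/fl mice and mock-treated zfp36 fl/fl mice. Both genotypes carried the floxed Zfp36 gene, and the controls were littermates without the Cre label. Imiquimod was applied to the skin on 5 consecutive days, and abdominal skin was taken 4 hours after the last application. The sources used here give neither age nor sex. The K14 promoter is known to be active in basal keratinocytes; where the gene was lost was not measured here.

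Zfp36 encodes tristetraprolin, an RNA-binding protein that attaches to AU-rich elements in messenger RNAs of cytokines and other short-lived transcripts and promotes their decay. Imiquimod is a ligand of Toll-like receptor 7, and its repeated application to mouse skin gives a scaling, thickened epidermis with IL-23, IL-17 and IL-36 signalling and an influx of neutrophils. An interaction asks whether a gene's response to the drug depends on the genotype. A response is called amplified where it was larger in knockout skin, blunted where it was smaller in knockout skin, and reversed where the genotypes responded in opposite directions, in each case among genes whose interaction passed the test.

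The skin samples held the keratinocyte marker Krt14 at 10.54 to 12.31 and the epidermal regulator Trp63 at 8.68 to 9.18 on the log2 scale. In whole skin, fewer cells of a type and less RNA per cell cannot be told apart. Zfp36 itself had log2 values of 5.47, 7.41, 6.12, 7.18 and 5.82 in knockout imiquimod skin and 5.12, 6.84, 7.12, 4.61 and 3.47 in knockout mock skin. In controls it had 8.04, 8.40, 7.99, 7.89 and 7.68 in imiquimod skin and 7.28, 7.45, 7.74, 7.22 and 7.61 in mock skin. Within each treatment every knockout array was below every control array, so no array went against its label in the targeted gene. The genotype difference itself was not called, at -1.60 under imiquimod (adjusted p = 0.221, limma) and -2.03 in mock skin (adjusted p = 0.999). The knockout arrays varied widely, and knockout imiquimod replicate 2, at 7.41, lay within the range of the control mock arrays. Where the probes lie relative to the deleted part was not examined. The Zfp36 interaction was 0.43 ± 0.72 (SE, adjusted p = 0.955) and was not distinguishable from 0. In 4 arrays the mean of 31 hair shaft genes stood apart from the rest of their group: 8.97 in knockout imiquimod replicate 1, 5.89 in knockout mock replicate 3, 9.16 in control imiquimod replicate 5 and 5.94 in control mock replicate 5. A further 2 arrays lay over 1 from their group's median: knockout imiquimod replicate 4, at 7.36, and knockout mock replicate 2, at 7.86. Results without the first 4, and without all 6, are given beside the called genes.

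Of 22180 genes, 4 had an interaction past an adjusted p of 0.05 (0.018% of genes, limma with Benjamini-Hochberg adjustment over all genes). All 4 interactions were positive: those of Fetub, Il19 and Cdhr1, whose rises were amplified in knockout skin, and that of Arg1, which moved in opposite directions in the genotypes. The responses themselves were far more numerous: 4605 genes passed in knockout skin (20.8%), with 2451 rises (11.1%) and 2154 falls (9.71%), and 2404 passed in control skin (10.8%), with 1435 rises (6.47%) and 969 falls (4.37%). Between genotypes under imiquimod, 121 genes passed (0.546%), 83 of them higher in knockout skin (0.374%) and 38 lower (0.171%). In mock skin 2 genes passed (0.00902%), both higher in knockout skin (0.00902%): Chil1, a chitinase-like protein, by 1.35 (adjusted p = 0.0164), and Aadacl3, by 1.21 (adjusted p = 0.0488). No interaction was negative past the threshold in limma, and no response was blunted. At an unadjusted p under 0.05, limma gave 842 negative interactions (3.8% of genes) and 655 positive ones (2.95%).

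Which genes passed in which genotype did not define an interaction. Of the 2727 genes called in knockout skin only, 2542 had an estimate of the same sign in controls and 1, Il19, passed the test of the interaction. Of the 526 genes called in control skin only, 473 had the same sign in knockouts and 0 passed the test of the interaction. A further 1877 genes were called in the same direction in both genotypes, with the larger estimate in knockouts for 1202 and the smaller for 673, and 2 of the 1202, Fetub and Cdhr1, passed.

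The precision sets what could pass. The median standard error of an interaction was 0.159 on the log2 scale, against 0.113 for a single response, and the median 95% interval reached 0.332 to either side. Interactions of at least 1 in size were estimated for 179 genes, 91 positive and 88 negative, yet the smallest called one was 1.01 and the largest uncalled one was 3.10 in size. In simulated data with 22180 genes, randomly drawn genes were given an interaction, 67 of 0.5, 67 of 1 and 66 of 2. The noise was normal, at each gene's own residual SD. The same test recovered 28.4%, 82.1% and 97% of them, with 6 false calls. Genes with large estimates in the real data varied more than most. In knockout imiquimod skin the median SD was 0.16 over all genes and 0.69 over the 100 genes with the largest interactions. The simulated rates thus do not hold for such genes. The number of arrays limits this precision, and a gene that missed the threshold was not shown to respond alike in the genotypes. The count of positive calls went to 8 without knockout imiquimod replicate 3 and to 7 without knockout imiquimod replicate 4, and 2 negative calls appeared without knockout imiquimod replicate 5, against 0 with all arrays.

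**Figure D1:**
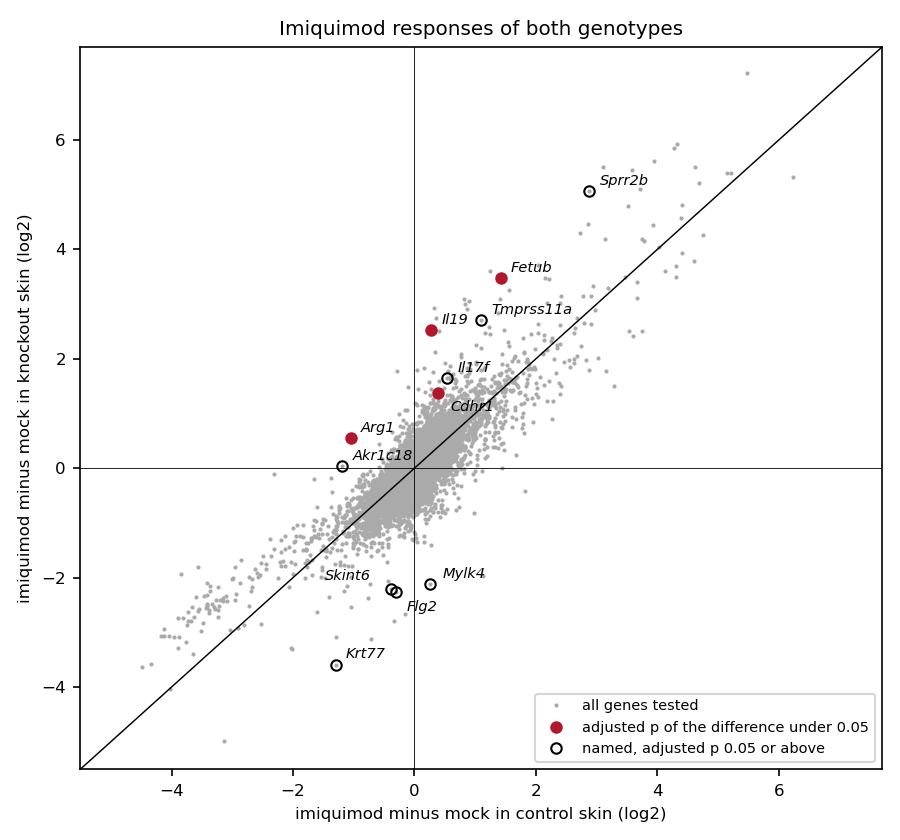
Each point is a gene, with the log2 imiquimod response of control skin on the horizontal axis and of knockout skin on the vertical axis; on the diagonal the responses are equal. Filled red points are the 4 genes whose interaction passed, and open circles are named genes that did not pass. All 4 red points lie above the diagonal, and Arg1 lies left of 0 on the control axis and above 0 on the knockout axis.

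Arg1, which encodes the arginase that splits arginine into ornithine and urea, was the single reversed response with all 20 arrays. Its log2 values were 7.40, 7.84, 7.42, 7.49 and 7.27 in knockout imiquimod skin, against 6.87, 6.68, 6.74, 6.95 and 7.42 in knockout mock skin. In controls they were 6.34, 6.42, 6.47, 6.15 and 6.74 in imiquimod skin, against 7.50, 7.55, 7.39, 7.31 and 7.61 in mock skin. Control imiquimod and control mock arrays did not overlap, whereas knockout mock replicate 5, at 7.42, lay within the range of the knockout imiquimod arrays. Arg1 rose in knockout skin by 0.55 (1.47-fold, adjusted p = 0.00513) and fell by 1.05 in control skin (adjusted p = 1.67e-05). The interaction was 1.60 ± 0.19 (SE, 95% interval 1.21 to 1.99, adjusted p = 0.000723).

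The genotypes thus differed in Arg1 under imiquimod, where every knockout array was above every control array and the difference was 1.06 (adjusted p = 0.000398). In mock skin the difference was -0.54 with an adjusted p of 0.999 (unadjusted p = 0.000617, limma). The mock groups overlapped through knockout mock replicate 5, at 7.42. The other knockout mock arrays, at 6.68 to 6.95, were below every control mock array (7.31 to 7.61). The interaction is the difference under imiquimod less that in mock skin, so both enter it. The group mean was 7.48 in knockout imiquimod skin and 7.47 in control mock skin. Without the 4 arrays apart in hair genes, the Arg1 response remained reversed. Without all 6 the interaction was 1.52 (adjusted p = 0.0146), but the response was 0.43 in knockout skin (adjusted p = 0.0802) and -1.09 in control skin (adjusted p = 2.23e-05), so the rise in knockout skin was no longer called and the response counted as blunted.

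Among 17 measured genes of arginine, nitric oxide and polyamine metabolism, Arg1 alone passed the interaction test and the median interaction was 0.13, against 0.004 over all genes. Of the 17, 12 had positive and 5 had negative estimates. Slc7a2, a transporter of arginine, had an interaction of -0.96 ± 0.34 (SE, adjusted p = 0.617). Nos2, the inducible synthase that makes nitric oxide from arginine, had an interaction of 0.46 (adjusted p = 0.728). Odc1, the enzyme that turns ornithine into putrescine, had an interaction of 0.43 ± 0.33 (SE, adjusted p = 0.868).

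Fetub, which encodes fetuin-B, a secreted cystatin-family inhibitor of metalloproteases of the astacin type, rose in both genotypes and rose more in knockout skin. Its log2 values were 7.32, 8.11, 7.76, 7.04 and 7.88 in knockout imiquimod skin, against 4.46, 4.38, 3.84, 3.87 and 4.14 in knockout mock skin. Control skin had 5.34, 5.42, 5.91, 5.6 and 5.25 in imiquimod skin, against 4.03, 3.92, 4.24, 4.01 and 4.24 in mock skin. The knockout imiquimod arrays were above all others, the control imiquimod arrays came next, and the mock groups overlapped. The rise was 11.2-fold in knockout skin (adjusted p = 7.4e-11), against 2.67-fold in control skin (adjusted p = 1.28e-05). The interaction was 2.07 ± 0.25 (SE, 95% interval 1.55 to 2.59, adjusted p = 0.000723), and 2.24 (adjusted p = 0.000239) without the 6 arrays apart in hair genes.

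Il19, a cytokine of the IL-10 superfamily that signals through the IL-20 receptors and STAT3, rose in knockout skin. Its log2 values were 7.16, 7.26, 6.13, 7.31 and 5.98 in knockout imiquimod skin, against 4.32, 3.85, 4.15, 4.54 and 4.35 in knockout mock skin. Control arrays read 4.79, 4.71, 4.41, 4.65 and 4.35 in imiquimod skin, against 4.45, 3.92, 4.36, 4.18 and 4.61 in mock skin. Replicates 1, 2 and 4 of the knockout imiquimod group were above 7 and replicates 3 and 5 near 6, all above every other array, while the control groups overlapped. The response was 5.76-fold in knockout skin (adjusted p = 1.24e-07), and in control skin it was 0.28 on the log2 scale (adjusted p = 0.525). The interaction was 2.25 ± 0.32 (SE, 95% interval 1.58 to 2.91, adjusted p = 0.00549). Without the 4 arrays apart in hair genes it was 1.99 and did not pass (adjusted p = 0.0852), and without all 6 it was 1.64 (adjusted p = 0.259).

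Cdhr1, a cadherin-related protein best known from photoreceptors, rose in both genotypes and more in knockout skin. Its log2 values were 5.79, 6.09, 5.70, 6.18 and 6.03 in knockout imiquimod skin, against 4.58, 4.35, 4.63, 4.68 and 4.63 in knockout mock skin. In controls they were 4.82, 4.73, 5.14, 4.82 and 4.74 in imiquimod skin, against 4.32, 4.58, 4.41, 4.43 and 4.63 in mock skin. Imiquimod and mock arrays did not overlap within either genotype, and the lowest knockout imiquimod array was above the highest control imiquimod array. The rise was 2.61-fold in knockout skin, against 1.30-fold in control skin (adjusted p = 0.0214). The interaction was 1.01 ± 0.15 (SE, adjusted p = 0.00549), and without the 4 arrays apart in hair genes it was 0.998 with an adjusted p of 0.0541. Without all 6 it was 0.87 (adjusted p = 0.254).

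**Figure D2:**
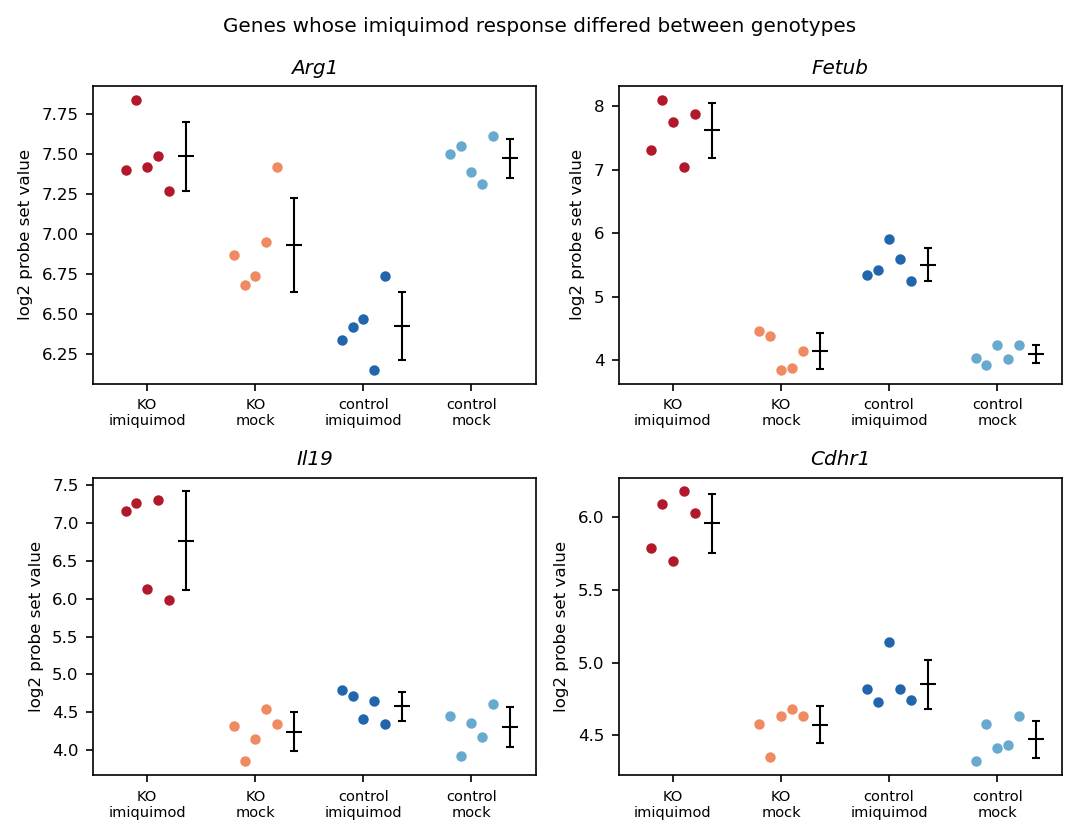
Log2 probe set values of the 4 genes with a called interaction, 1 point per array, with group mean and SD as bars, for knockout imiquimod, knockout mock, control imiquimod and control mock skin from left to right. For Fetub, Il19 and Cdhr1 the 5 knockout imiquimod arrays lie above every other array; for Arg1 the control imiquimod arrays lie lowest, with replicate 5 level with the lower knockout mock arrays.

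The promoters of the 3 amplified genes, which passed the same test, are shown, each as 300 bases that span the annotated start (RefSeq, GRCm38.p6, gene strand, 5′ to 3′), with motif matches in capitals. Arg1 passed too, but the promoter reference used held no entry for it. 
Il19 (chr1:130940066-130940365, minus strand): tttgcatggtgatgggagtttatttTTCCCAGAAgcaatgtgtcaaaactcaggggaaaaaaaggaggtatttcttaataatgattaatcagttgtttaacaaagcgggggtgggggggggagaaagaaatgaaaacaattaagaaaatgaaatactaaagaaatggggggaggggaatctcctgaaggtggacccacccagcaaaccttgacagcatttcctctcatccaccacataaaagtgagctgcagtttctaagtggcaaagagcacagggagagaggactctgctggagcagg
Cdhr1 (chr14:37098298-37098597, minus strand): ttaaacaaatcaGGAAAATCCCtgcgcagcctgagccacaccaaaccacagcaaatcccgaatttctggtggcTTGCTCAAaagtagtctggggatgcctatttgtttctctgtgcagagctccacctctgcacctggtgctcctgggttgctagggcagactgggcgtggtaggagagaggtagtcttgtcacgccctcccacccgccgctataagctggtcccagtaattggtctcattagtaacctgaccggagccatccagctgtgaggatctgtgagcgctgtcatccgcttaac
Fetub (chr16:22918132-22918431, plus strand): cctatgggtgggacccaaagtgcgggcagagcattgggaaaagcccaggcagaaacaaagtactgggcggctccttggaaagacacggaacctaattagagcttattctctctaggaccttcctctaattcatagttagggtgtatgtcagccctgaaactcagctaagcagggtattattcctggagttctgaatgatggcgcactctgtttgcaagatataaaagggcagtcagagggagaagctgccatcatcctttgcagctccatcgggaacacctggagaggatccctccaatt
The motifs searched on both strands were TTCNNNGAA for STAT factors, TGANTCA for AP-1, TTGCNNAA for C/EBP and, for NF-kB, GGGA followed by any base and TTTCC; no match overlapped another. The Il19 window held a STAT match, a motif found in 8.3% of 32851 promoters of this length. The Cdhr1 window held a C/EBP match, found in 10.8% of promoters, and an NF-kB match on the opposite strand, found in 0.411%. The Fetub window shown, the first of 2 entries, held no match to these letters, nor did the other entry; AP-1 matches occurred in 7.81% of promoters and in none of these windows. These are descriptions of the letters, and binding was not measured.

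Il19 was the one called member among 24 measured genes of the IL-6 and IL-20 cytokine families, their receptors and STAT3 feedback genes, whose median interaction was -0.01 with 12 positive and 12 negative estimates. Its closest relatives did not pass. Il20 rose in both genotypes, by 0.78 in knockout skin and 1.06 in control skin, with an interaction of -0.28 ± 0.24 (SE, adjusted p = 0.886). Il24 rose by 0.59 in knockout skin (adjusted p = 0.024), and its response was 0.01 in control skin, with an interaction of 0.58 (adjusted p = 0.723). Csf3r, the receptor for the neutrophil growth factor G-CSF, had an interaction of 1.21 ± 0.39 (SE, adjusted p = 0.584), and Socs3, the feedback inhibitor of STAT3 signalling, had 0.59 (adjusted p = 0.714). Il31ra, the receptor subunit for the itch cytokine IL-31, had -1.10 (adjusted p = 0.592).

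Among positive interactions that did not pass, the smallest p-values were those of Tmprss11a, Akr1c18, Slc23a4, Tspan3, Sprr2b and Il17f. Here and below, where alternatives are named in which an uncalled gene passed, it passed in no others. Tmprss11a, a membrane-bound serine protease of epithelia, had values of 6.30, 7.28, 6.80, 5.92 and 6.72 in knockout imiquimod skin, against 3.63, 3.67, 4.35, 3.96 and 3.88 in knockout mock skin. In controls it had 5.19, 5.10, 5.19, 5.04 and 4.40 in imiquimod skin, against 3.76, 3.83, 3.87, 3.84 and 4.15 in mock skin. Imiquimod and mock arrays did not overlap in either genotype. Its interaction was 1.61 ± 0.29 (SE, adjusted p = 0.0736) and passed without knockout imiquimod replicate 4, at 1.78, and without knockout mock replicate 3, at 1.73. The former, at 5.92, was the lowest knockout imiquimod array and the latter, at 4.35, the highest knockout mock array. The interaction also passed with array weights (adjusted p = 0.0136) and with the hair (0.000499), muscle (0.0065) or adipocyte (0.00193) mean as a covariate. Without the 6 arrays apart in hair genes it passed too (0.000239). Among 7 genes of the Tmprss11 protease family, looked up after their values were seen, 6 had positive estimates, the highest being 2.09 for Tmprss11g (adjusted p = 0.186), and none passed. Tmprss11g passed without knockout imiquimod replicate 3, at 2.41, as did Tmprss11b, at 1.68.

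Akr1c18, an aldo-keto reductase that inactivates progesterone, fell by 1.19 in control skin (adjusted p = 4.98e-05) and had a response of 0.04 in knockout skin (adjusted p = 0.906). Its values were 8.78, 9.80, 9.30, 9.16 and 9.79 in knockout imiquimod skin, against 9.49, 9.34, 9.62, 9.16 and 9.0 in knockout mock skin. Control skin had 7.74, 7.80, 7.72, 7.62 and 7.72 in imiquimod skin, against 8.64, 8.78, 9.22, 8.81 and 9.08 in mock skin. The control imiquimod arrays were the lowest of all 20 and lay within a narrow range, whereas the knockout groups overlapped. The interaction was 1.23 ± 0.23 (SE, adjusted p = 0.119). It passed without the 4 arrays apart in hair genes, at 1.41 (adjusted p = 0.0443), which made Akr1c18 the single blunted response under that setting, and without knockout imiquimod replicate 1, at 1.38. It passed as well without all 6 arrays (adjusted p = 0.0146), with array weights (0.032) and with the hair (0.00349), muscle (0.0065) or adipocyte (0.00608) mean as a covariate.

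Sprr2b, a small proline-rich protein of the cornified envelope, rose in both genotypes, by 5.06 in knockout skin and by 2.88 in control skin. Its values were 10.81, 10.94, 10.16, 10.44 and 10.59 in knockout imiquimod skin, against 5.59, 5.34, 5.47, 5.18 and 6.06 in knockout mock skin. The control arrays held 8.95, 8.47, 9.34, 8.49 and 6.78 in imiquimod skin, against 5.45, 5.39, 5.44, 5.31 and 6.04 in mock skin. Every knockout imiquimod array exceeded every control imiquimod array, of which replicate 5 was the lowest. The interaction was 2.18 ± 0.45 (SE, adjusted p = 0.186), and 1.77 (adjusted p = 0.0228) without control imiquimod replicate 5; it passed with the hair mean as a covariate too, at 2.29. All 7 measured Sprr2 genes, looked up after values were seen, had positive estimates between 0.55 and 2.18 with a median of 1.69; the genes are close in sequence, so their probe sets may share signal.

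Il17f, a cytokine of type 17 lymphocytes, rose by 1.65 in knockout skin and by 0.54 in control skin, with an interaction of 1.11 ± 0.23 (SE, adjusted p = 0.186). Its values were 6.88, 7.34, 6.20, 7.02 and 6.50 in knockout imiquimod skin and 5.14, 5.21, 4.95, 5.21 and 5.2 in knockout mock skin, against 5.82, 5.47, 5.73, 5.31 and 5.64 in control imiquimod skin and 5.26, 5.01, 4.84, 4.85 and 5.32 in control mock skin. The knockout imiquimod arrays were above all others, and the interaction passed at 1.26 without knockout imiquimod replicate 3. Il17a rose by 0.51 in knockout skin, with an interaction of 0.16 (adjusted p = 0.946). Il22 had an interaction of 0.18 (adjusted p = 0.847). It read 1.63 to 2.18 in all 20 arrays, near the lowest deposited value of 1.41, so this estimate says little about its response. Of 18 measured genes of the IL-17, IL-23 and IL-22 axis, none passed and 11 had positive estimates, with a median of 0.09. Slc23a4, a nucleobase transporter, and Tspan3, a tetraspanin, had interactions of 0.74 (adjusted p = 0.178) and 0.89 (adjusted p = 0.184). Slc23a4 passed without control imiquimod replicate 3, at 0.83, and Tspan3 with array weights, at 0.98.

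**Figure D3:**
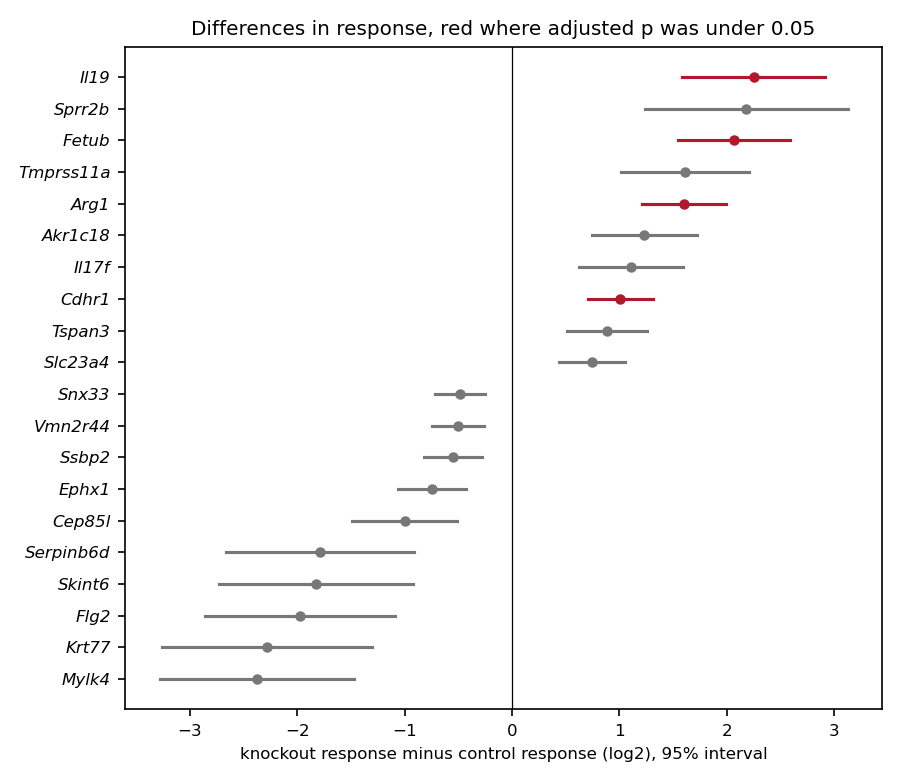
Interaction (knockout response minus control response, log2) with its 95% interval for the 10 positive and 10 negative genes named by the smallest p. Red marks the 4 genes past an adjusted p of 0.05; the gray intervals also exclude 0 one gene at a time but did not pass after adjustment over 22180 genes.

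The negative interactions with the smallest p-values were not called. Mylk4, a kinase of the myosin light chain kinase family expressed in muscle, fell by 2.12 in knockout skin (adjusted p = 4.83e-05) and had a response of 0.26 in control skin (adjusted p = 0.706). Its values were 5.02, 5.10, 5.58, 4.81 and 5.82 in knockout imiquimod skin, against 7.0, 7.79, 7.82, 6.83 and 7.48 in knockout mock skin. In controls they were 6.79, 7.67, 6.50, 7.45 and 6.50 in imiquimod skin, against 6.53, 6.04, 7.17, 6.21 and 7.68 in mock skin. The knockout imiquimod arrays were below all others, and the control groups overlapped. The interaction was -2.37 ± 0.43 (SE, adjusted p = 0.0879) and passed without control mock replicate 5, at -2.61, with array weights, at -2.57, and with the hair mean as a covariate, at -2.21.

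Skeletal muscle genes moved with Mylk4. The mean of 24 muscle genes ranged from 7.44 to 8.03 in knockout imiquimod skin and from 8.01 to 8.70 in knockout mock skin, against 7.97 to 8.80 in control imiquimod skin and 7.86 to 9.06 in control mock skin. The list had a median interaction of -0.72, with 21 negative and 3 positive estimates and none called. With the muscle mean as a covariate, the Mylk4 interaction was -1.50 and passed (adjusted p = 0.00188). The share of muscle in each sample was not measured otherwise, and its part in the result was not tested further.

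Krt77, a keratin of the suprabasal epidermis and sweat ducts, fell in both genotypes, by 3.59 in knockout skin and by 1.30 in control skin. Its values were 7.25, 6.86, 7.69, 8.30 and 9.16 in knockout imiquimod skin, against 11.24, 11.64, 11.86, 11.26 and 11.19 in knockout mock skin. Control skin had 9.91, 10.75, 9.47, 10.46 and 10.26 in imiquimod skin, against 11.03, 11.11, 11.69, 11.45 and 12.09 in mock skin. All knockout imiquimod arrays were below all control imiquimod arrays, with replicate 5 the nearest to them. The interaction was -2.28 ± 0.47 (SE, adjusted p = 0.186), and -2.61 (adjusted p = 0.0111) without knockout imiquimod replicate 5, the only alternative in which it passed. Leaving out the array nearest the controls enlarges the estimate by itself.

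Flg2, a filaggrin family protein of the cornified layer, fell by 2.27 in knockout skin, and its response was -0.30 in control skin (adjusted p = 0.634). Its values were 6.66, 7.21, 8.07, 7.2 and 8.55 in knockout imiquimod skin and 9.62, 10.21, 10.29, 9.49 and 9.42 in knockout mock skin, against 9.54, 9.94, 9.04, 9.59 and 9.60 in control imiquimod skin and 9.47, 9.48, 10.12, 9.55 and 10.58 in control mock skin. The knockout imiquimod arrays were below every other array. The interaction was -1.97 ± 0.42 (SE, adjusted p = 0.228), and -2.22 (adjusted p = 0.0449) without knockout imiquimod replicate 5, the highest array of that group. Leaving out that array enlarges the estimate by itself. The interaction passed with the hair mean as a covariate too, at -1.82.

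Skint6, of the family of epidermal and thymic proteins whose founding member selects a class of epidermal T cells in mice, fell by 2.20 in knockout skin, with an interaction of -1.82 ± 0.43 (SE, adjusted p = 0.316). With the hair mean as a covariate it was -1.65 and passed (adjusted p = 0.0283). Skint9 had an interaction of -2.50 (adjusted p = 0.342), the most negative in the list of T and innate lymphoid genes. That list included Skint genes, which belong to this epidermal and thymic family and are not markers of T cells. All 11 measured Skint genes, looked up after values were seen, had negative estimates, from -2.50 to -0.16 with a median of -1.08, and none passed. Ephx1, the microsomal epoxide hydrolase, fell by 1.06 in knockout skin, with an interaction of -0.75 (adjusted p = 0.186). Cep85l, Ssbp2, Snx33 and Vmn2r44 had interactions of -1.0, -0.55, -0.48 and -0.50, each with an adjusted p between 0.303 and 0.316.

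No response was blunted past the test with all arrays. Some genes with a smaller estimate in knockout skin, chosen after values were seen, are given as values. Nt5c2, Zfp872 and Thnsl2 were taken for small interaction p-values among genes called in control skin with a smaller response in knockouts. Elovl5 had the smallest p of the sebaceous list. Nt5c2, a cytosolic nucleotidase, rose by 0.81 in control skin and had a response of 0.20 in knockout skin (adjusted p = 0.206), with an interaction of -0.61 ± 0.15 (SE, adjusted p = 0.319). Zfp872, a zinc finger gene, rose by 0.69 in control skin and had a response of -0.06 in knockout skin, with an interaction of -0.75 (adjusted p = 0.342). Elovl5, a fatty acid elongase, rose by 0.63 in control skin and had a response of -0.12 in knockout skin, with an interaction of -0.75 (adjusted p = 0.581). Among falls, Thnsl2, a threonine synthase-like enzyme, fell by 0.35 in control skin and had a response of 0.07 in knockout skin, with an interaction of 0.42 (adjusted p = 0.333). Ccl20, the ligand of CCR6, rose in both genotypes, by 1.12 in knockout skin and by 1.65 in control skin, with an interaction of -0.52 ± 0.18 (SE, adjusted p = 0.617). Its values were 7.08, 6.98, 6.75, 6.66 and 6.92 in knockout imiquimod skin, against 7.21, 7.65, 7.17, 7.60 and 6.95 in control imiquimod skin, and these ranges overlapped.

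Serpinb6d, a clade B serine protease inhibitor, had estimates of opposite sign, -0.81 in knockout skin (adjusted p = 0.0606) and 0.98 in control skin (adjusted p = 0.0384). Its interaction was -1.78 ± 0.42 (SE, adjusted p = 0.316). Both treatments entered it: knockout minus control was -0.90 under imiquimod (adjusted p = 0.247) and 0.89 in mock skin (adjusted p = 0.999). Over all genes, 8 had responses of opposite sign with both at least 0.5 in size, and Arg1 was the one that passed.

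Lists of genes grouped by role were compared through their counts and medians. Over all genes the median interaction was 0.004, with quartiles of -0.12 and 0.12. In 34 lists with 767 measured memberships of 710 genes, 2 members passed, Il19 and Arg1. Lists of tissue markers stand beside the epidermal and immune ones.

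Messengers reported as targets of tristetraprolin had a median interaction of 0.14, with 29 of 39 estimates positive and none called. The list holds Zfp36 itself, the targeted gene, whose estimate of 0.43 is among the positive ones. Tnf, the classical target, rose by 0.98 in knockout skin (adjusted p = 5.79e-05), and its response was 0.35 in control skin (adjusted p = 0.136). Its values were 6.63, 7.10, 6.83, 7.32 and 6.38 in knockout imiquimod skin, against 5.74, 5.80, 5.90, 6.17 and 5.74 in knockout mock skin. Control arrays read 6.15, 6.32, 6.36, 6.03 and 5.91 in imiquimod skin, against 5.92, 5.61, 6.01, 5.72 and 5.76 in mock skin. Knockout imiquimod arrays were above all control arrays, and the control groups overlapped. The Tnf interaction was 0.63 ± 0.20 (SE, adjusted p = 0.581). The other family members, Zfp36l1 and Zfp36l2, had interactions of 0.19 (adjusted p = 0.8) and -0.16 (adjusted p = 0.91).

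The largest estimates among the reported targets were in myeloid cytokines and chemokines. Il1b, the inflammasome-processed cytokine, had values of 8.82, 8.72, 7.64, 11.1 and 8.03 in knockout imiquimod skin, against 5.63, 5.6, 5.90, 5.62 and 6.09 in knockout mock skin. In controls it had 6.08, 5.84, 6.46, 6.15 and 5.64 in imiquimod skin, against 5.0, 5.30, 5.42, 4.87 and 5.54 in mock skin. Knockout imiquimod replicate 4 stood highest, and even the lowest array of its group was above all arrays of the other groups. The interaction was 2.29 ± 0.57 (SE, adjusted p = 0.333), and 1.73 without replicate 4, where it passed (adjusted p = 0.0418). Ccl3, a chemokine for monocytes and neutrophils, had an interaction of 2.40 ± 0.58 (SE, adjusted p = 0.328), and Cxcl2, a ligand of the neutrophil receptor CXCR2, had 1.59 (adjusted p = 0.589). Clec4e, the myeloid receptor Mincle, had the largest positive estimate of all genes, 2.59 ± 0.63 (SE, adjusted p = 0.333).

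Most neutrophil markers also had positive estimates. Clec4e is itself a member of this list and its largest estimate, so for Clec4e the list is not a separate measure. Whether the list varied with Il1b or Ccl3 from array to array was not tested. The mean of 23 neutrophil genes was 6.0, 6.02, 5.74, 6.97 and 5.74 in knockout imiquimod skin and 4.56 to 4.76 in knockout mock skin, against 4.89 to 5.55 in control imiquimod skin and 4.48 to 4.56 in control mock skin. The list's median interaction was 0.56, with 20 of 23 estimates positive and none called, and it was 0.267 without knockout imiquimod replicate 4. Its lowest estimate was -1.14, for Ltf. The part of neutrophil number in the Il1b, Ccl3 and Clec4e estimates was not tested.

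**Figure D4:**
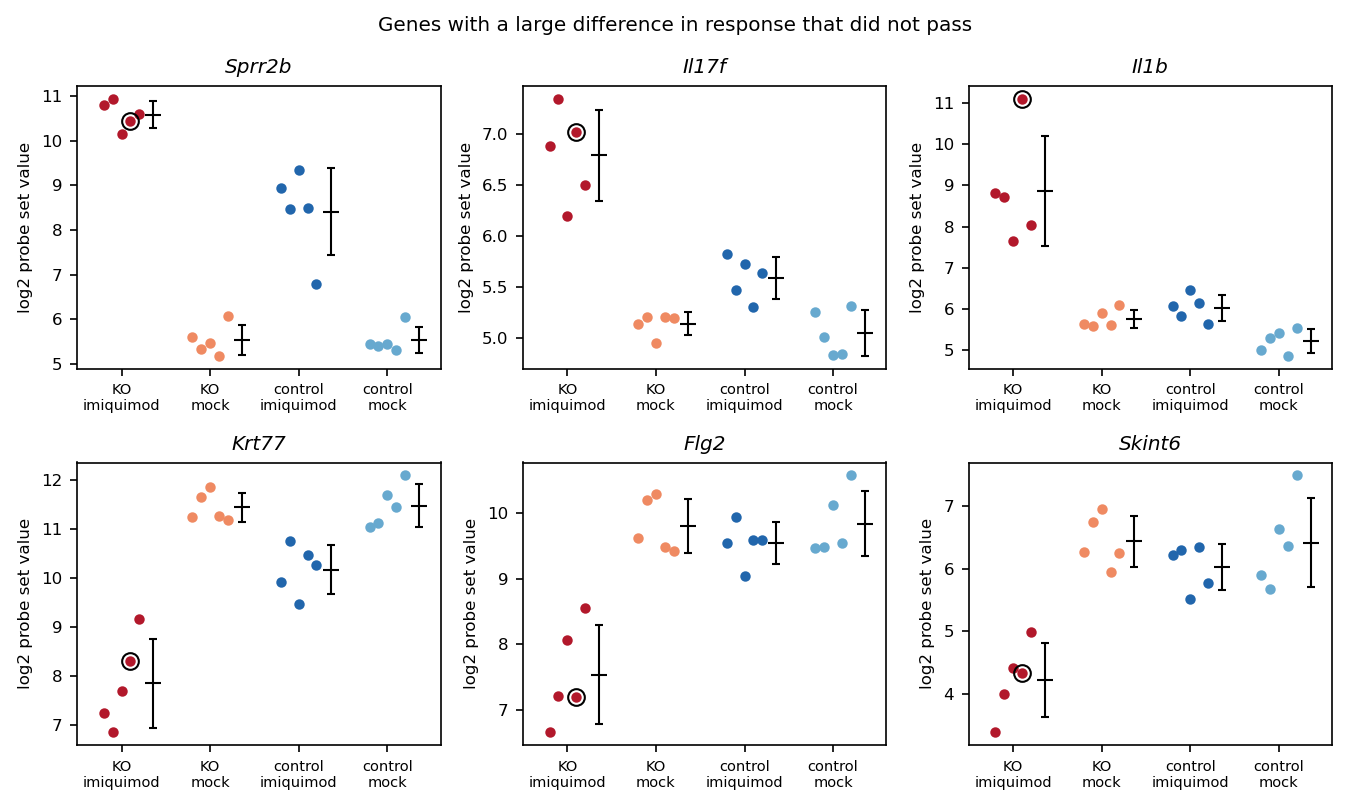
Log2 values per array of 6 genes with large uncalled interactions, by group in the order knockout imiquimod, knockout mock, control imiquimod and control mock skin. A black circle marks knockout imiquimod replicate 4, the highest array for Il1b; the bars are group mean and SD.

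The list of stress keratins, Sprr proteins and stefins had a median interaction of 0.53, with 21 of 25 positive and none called, while 19 of them rose in knockout skin, against 11.1% of all genes, and 18 in control skin, against 6.47% of all genes. The antimicrobial proteins, S100 proteins and acute-phase proteins had a median of 0.39, with 18 of 21 positive and none called. Within them, Saa2, an acute-phase serum amyloid A protein, rose by 1.19 in knockout skin and had a response of 0.01 in control skin, with an interaction of 1.18 (adjusted p = 0.277). Defb4, an inducible beta-defensin, had an interaction of 2.05 (adjusted p = 0.303), or 2.39 (adjusted p = 0.0204) without knockout imiquimod replicate 3, and Saa3 had 2.40 (adjusted p = 0.514). S100a8, a subunit of calprotectin made by neutrophils and stressed keratinocytes, had 1.68 (adjusted p = 0.654). The lowest estimate of this list went the other way, at -1.14 for Ltf.

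Genes of late differentiation had a median of -0.27, with 29 of 45 estimates negative and none called, and the median was 0.0023 with the muscle mean as a covariate. Here related genes of the late cornified envelope cluster pointed in opposite directions by estimate, a grouping made after values were seen. All 11 measured Lce1 genes had negative estimates, from -1.60 to -0.57, and all 6 Lce3 genes had positive ones, from 0.18 to 1.68, and none of either passed. Lce3a had an interaction of 1.68 ± 0.46 (SE, adjusted p = 0.463), and Lce1k had -1.38 ± 0.41 (SE, adjusted p = 0.522). Krt14 rose in both genotypes, by 1.27 in knockout skin and by 0.85 in control skin, with an interaction of 0.42 (adjusted p = 0.714). The barrier ceramide genes had a median of -0.02.

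Cell cycle genes had a median interaction of 0.65, with 36 of 37 estimates positive and none called. Of the 37, 28 rose in knockout skin, where 11.1% of all genes did, and 3 in control skin, where 6.47% of all genes did. Rrm2, a ribonucleotide reductase subunit, rose by 1.16 in knockout skin, and its response was 0.38 in control skin, with an interaction of 0.78 (adjusted p = 0.588). Hair shaft genes had a median interaction of 0.68 with 30 of 31 positive, and melanocyte genes 0.43, while muscle genes had the -0.72 given above. With the muscle mean as a covariate the cell cycle median was 0.09, the hair median -1.92 and the melanocyte median -0.44, so the hair and melanocyte directions flip under that setting. Over all alternatives the hair median ran from -1.92 to 1.51, the highest without control mock replicate 5. With the hair covariate the hair median was -0.03, but that covariate is the mean of these same genes, so a value near 0 was fixed in advance. The melanocyte median ran from -0.44 to 0.74, the highest without knockout mock replicate 1. The part of hair growth stage or tissue depth in the cell cycle estimates was not tested.

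Type I interferon response genes had a median of -0.35, with 26 of 26 estimates negative and none called, and -0.13 with the muscle mean as a covariate. Of the 26, 6 fell in knockout skin, where 9.71% of all genes did, and the median response was -0.36 in knockout skin and -0.02 in control skin. Irf7, a master regulator of interferon genes, had an interaction of -0.58 ± 0.25 (SE, adjusted p = 0.721). Adipocyte genes had a median of -0.51 with 17 of 18 negative, and sebaceous gland genes -0.52 with 16 of 19 negative, none called. With the muscle mean as a covariate these medians were -0.07 and -0.26. Macrophage genes had a median of -0.29 with 19 of 26 negative, and 0.17 with the muscle mean as a covariate. Retnla, a marker of alternatively activated macrophages also made in fat, fell in both genotypes, by 4.98 in knockout skin and by 3.14 in control skin, with an interaction of -1.84 (adjusted p = 0.617).

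**Figure D5:**
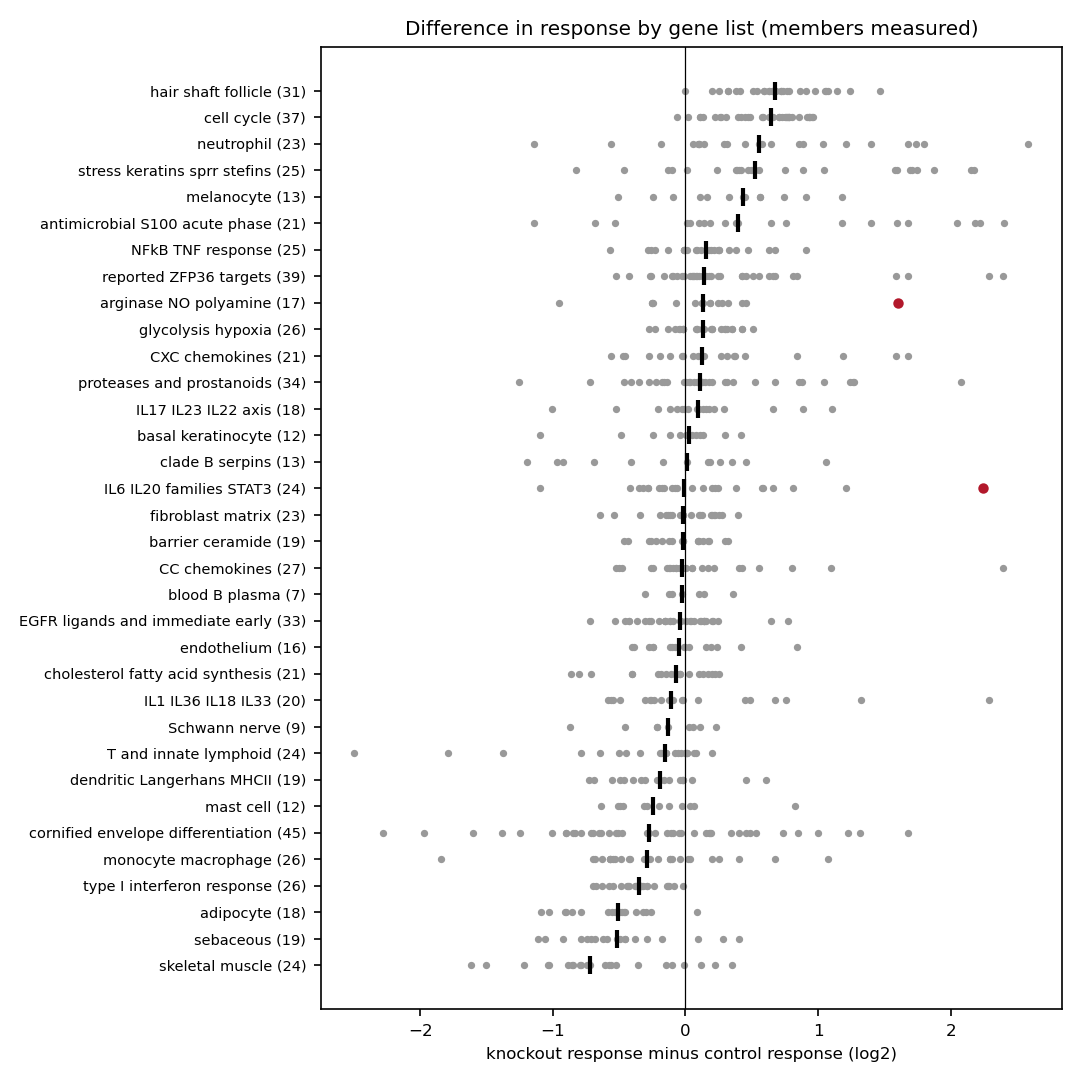
Interaction of each measured member of the gene lists (points), with the list median as a black bar, a vertical line at 0 and called members in red. Hair, cell cycle, neutrophil and stress keratin lists have medians above 0.5 and muscle, sebaceous and adipocyte lists below -0.5, while 2 members, Il19 and Arg1, passed the test.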

How the data were processed

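RNA from abdominal skin of 20 mice was hybridised to Affymetrix arrays, 1 array per mouse, 200 ng of RNA each, per the labels. The values that the authors deposited were taken as log2 from their range (1.41 to 13.33). Their log base, summarisation and normalization were not given in the sources used here. Array medians were 4.94 to 5.04. Of 41345 probe sets, 23521 had 1 gene symbol in the platform table, 1814 several and 16010 no entry; 22180 genes were tested, 1082 of them with several probe sets. No detection calls were used, so a dim gene's fold is uncertain.

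Groups were fitted with limma 3.58.1 in R 4.3.3 (lmFit, eBayes, 1 mean per group, 16 residual and 3.99 prior degrees of freedom), two-sided, with Benjamini-Hochberg adjustment over all genes. Calls in the simple responses classed each called gene as amplified, blunted or reversed. The fit was tested on simulated data. Members and lists were chosen with earlier results of these data known. Named genes were those called, filled to 10 per direction by smallest p, the called members or smallest p of each list, and Zfp36, Zfp36l1, Zfp36l2, Tnf, Arg1 and Krt14; provisional symbols were left out. Slc7a2, Nos2, Odc1, Il20, Il24, Csf3r, Socs3, Il31ra, Il17a, Il22, Defb4, Saa3, S100a8, Ltf, Lce3a and Lce1k were named after their values were seen, as were others where the text says so. Alternatives changed the prior, weights, scaling, probe set choice, dim genes, tissue covariates, replicate block and arrays left out; the choices to leave out the 4 arrays farthest from their group in hair genes, or the 6 over 1 from its median, were made with the data seen.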

Additional observations from a re-analysis of the deposited data

Results flagged for a closer look

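The response to imiquimod differed between genotypes by the test of the interaction for Arg1 (1.60), Cdhr1 (1.01), Fetub (2.07) and Il19 (2.25).

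Among 260 groups of 5 arrays, formed by 65 named genes in 4 groups, 14 held 1 array far from the other 4 by Dixon's criterion, and chance gives about 5% of groups. In knockout imiquimod skin, replicate 4 was low for Myh4 (8.63) and Serpinb3d (3.99), replicate 5 was high for Retnla (5.01), and replicate 1 was high for Shh (4.60) and low for Aloxe3 (7.69). In knockout mock skin, replicate 3 was low for Il17f (4.95) and Zfp36l1 (8.76) and high for Tmprss11b (3.89). In control imiquimod skin, replicate 3 was high for Cdhr1 (5.14) and replicate 5 was low for Tmprss11a (4.40). In control mock skin, replicate 5 was high for Tmprss11a (4.15), Sprr2b (6.04) and Irf7 (6.71), and replicate 4 was high for Snx33 (6.62).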

How the results depend on the processing

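Arg1 and Fetub passed in 33 of 33 alternatives, with interactions of 1.49 to 1.72 and 1.95 to 2.24, and Cdhr1 and Il19 in 31 of 33, failing without the 4 and without the 6 arrays apart in hair genes. Against 4 positive, 0 negative, 3 amplified, 0 blunted and 1 reversed response and 2 list members called, array weights gave 7 positive, 1 negative, 6 amplified and 1 blunted; the hair covariate gave 7 positive, 5 negative, 10 amplified, 1 blunted and 4 list members; and the muscle covariate gave 7 positive, 2 negative, 6 amplified, 1 blunted and 2 reversed. The adipocyte covariate gave 1 blunted, and leaving out the 4 arrays gave 1 amplified, 1 blunted and 1 list member, and leaving out the 6 gave 2 blunted (Arg1 and Akr1c18), 0 reversed and 1 list member. Leaving out each array in turn gave 4 to 8 positive, 0 to 2 negative, 3 to 7 amplified, 0 to 1 blunted and 1 to 2 reversed responses and 2 to 4 list members. Estimates turned sign under the muscle covariate for Aloxe3 (0.062), Odc1 (-0.0070) and Zfp36l2 (0.0076), and without knockout mock replicate 5 for Zfp36 (-0.0625, within -0.0625 to 0.85 over all arrays left out in turn); none of these passed. The cause was not tested. With the replicate block there were 4 positive and 0 negative interactions; same-numbered arrays did not deviate together (median correlation -0.067 over 30 pairs, and 2 of 20 arrays correlated best with their own number). The number of arrays and unknown background limit statements on dim genes.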

Other observations

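Of the 8 genes whose responses had opposite signs with both at least 0.5 in size, Arg1 passed and 7 did not. Cyp2e1, a cytochrome P450 of liver and fat, had the largest interaction in size of all genes, -3.10 ± 1.05 (SE, adjusted p = 0.589), with responses of -1.97 in knockout skin and 1.13 in control skin. Its values were 6.44, 6.56, 7.61, 4.35 and 8.76 in knockout imiquimod skin and 7.42, 9.09, 10.43, 9.26 and 7.39 in knockout mock skin, against 10.18, 9.85, 8.52, 8.71 and 7.56 in control imiquimod skin and 7.2, 6.69, 9.02, 7.04 and 9.22 in control mock skin, and all groups overlapped. Fcrls, a scavenger receptor-like gene of macrophages, had an interaction of -1.28 (adjusted p = 0.347), with responses of -0.55 in knockout skin and 0.72 in control skin. Acss3, Fam13a and Serpina12 had interactions of -1.44, -1.43 and -1.31, none of which passed. In mock skin, knockout minus control was 0.88 for Cyp2e1, 0.61 for Acss3 and 0.73 for Fam13a, and these differences enter the interactions. It was 0.034 for Fcrls and -0.018 for Serpina12, and none of these mock differences was called. These genes were chosen after their values were seen.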
